A study of Homo sapiens with 8 samples.

Results

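Binding of G3BP1 to the mRNAs of 7 molecular chaperones was examined in HEK293T cells, a long-established line derived from human embryonic kidney. G3BP1 is an RNA-binding protein around which stress granules, cytoplasmic bodies of untranslated mRNA and protein, assemble. The 7 genes were HSP90AB1, HSP90AA1 and HSPA8 (cytosolic chaperones), HSPA5, HSP90B1 and CANX (chaperones of the endoplasmic reticulum, ER) and HSPD1 (a mitochondrial chaperone). Members were the peaks that lay, on the gene's strand, in 1 fixed hg19 window per gene. They numbered 10 of the 1421 peaks from untreated cells (Ctrl) and 31 of the 2925 peaks from cells given PDS.

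Peaks came from seCLIP, in which RNA is crosslinked to protein with UV light, pulled down with an antibody to G3BP1 (IP) and compared with an input library made without that antibody. The 8 libraries formed 4 groups of 2 replicates: Ctrl IP, Ctrl input, PDS IP and PDS input, where PDS cells had received 20 µM PDS for 12 h before crosslinking. PDS is not written out in the labels; pyridostatin, a ligand that stabilises guanine quadruplexes, is commonly abbreviated this way. Each condition is represented by 1 list in which both replicates are already combined, so no value below has an SD, no difference between conditions could be tested against replicate spread, and the depth behind a peak is unknown. The labels do not say whether replicates were separate cultures.

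Chaperones help newly made or unfolded proteins to fold. HSP90 and HSP70 proteins use ATP to bind and release clients, chaperonins such as HSPD1 enclose them in a chamber, and calnexin, the product of CANX, holds glycoproteins by their sugars at the ER membrane. Cytosolic chaperone genes are known targets of the heat shock response, whereas HSPA5 and HSP90B1 are classic targets of the unfolded protein response of the ER. Guanine quadruplexes are stacked structures that guanine-rich RNA can form. The title of the series names binding of G3BP1 to such structures in mRNAs, and the comparison of both lists addresses how G3BP1 sites differ when the ligand is present.

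G3BP1 peaks lay in 5 of the 7 windows. HSP90AB1, HSP90AA1, CANX and HSPD1 had peaks in both lists, HSPA8 had a peak in the PDS list alone, and HSPA5 and HSP90B1 had none in either list. In each of the 5 bound windows the PDS list held more peaks: 8 against 4 for HSP90AB1, 7 against 1 for HSP90AA1, 1 against 0 for HSPA8, 8 against 3 for CANX and 7 against 2 for HSPD1. Together this was 3.1 times as many PDS as Ctrl peaks, where the whole lists differed by 2.06 times. When neighbouring peaks of a list within 50 nt were joined into regions, the windows held 18 PDS and 9 Ctrl regions, a ratio of 2.0 beside 1.73 for the whole lists. By regions HSP90AB1 had 4 in each list, and the PDS list still held more in the other 4 bound windows. The bound length was 1424 nt in the PDS list and 539 nt in the Ctrl list, a ratio of 2.64 (1.74 for the whole lists). The difference between these ratios and those of the whole lists was not tested. The share of all genes with peaks, or with more PDS than Ctrl peaks, was not computed. The counts of windows therefore show nothing particular to these genes, the more so as the PDS list is the longer one.

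**Figure D1:**
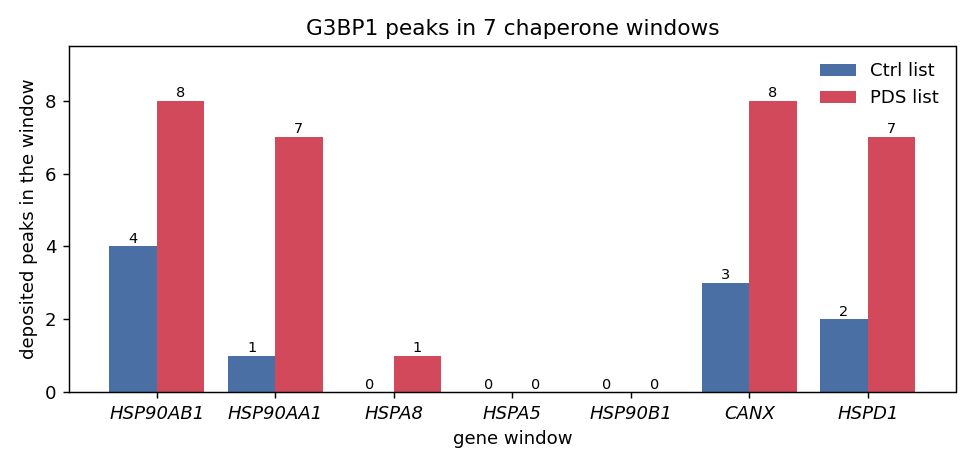
Number of deposited G3BP1 peaks (vertical axis) in each of the 7 gene windows (horizontal axis) in the Ctrl list (blue) and the PDS list (red), with the count over each bar. The PDS bar is taller in the 5 windows with peaks, and HSPA5 and HSP90B1 are at 0 in both lists.

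All 41 peaks lay wholly inside their windows, and the nearest peak outside any window on the same strand was 1085441 nt away at the closest, from HSP90AB1. The edges of the windows therefore decided no count. On the opposite strand the 7 windows held 0 peaks in either list. An hg19 annotation was not used here, so positions are given from the 5′ edge of each window along the RNA strand, and peaks were not divided into exons, introns and UTRs. The RefSeq tables place each of the 7 genes on the chromosome and strand of its window. The windows are genomic and include introns. By this measure 29 of 31 PDS peaks and 6 of 10 Ctrl peaks lay past the midpoint of their window. No share over the whole lists stands beside these counts, so no shift between conditions can be read from them. Adjoining pieces were counted singly, and a place in a genomic window is not a place along the mRNA.

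Each peak carries the authors' log2 fold of IP over input and a −log10 p, and both lists contain only peaks with a log2 fold above 3. The chaperone peaks had a median log2 fold of 3.47 in the Ctrl list (range 3.06 to 4.48), beside 3.52 for the whole list (quartiles 3.24 and 3.93). In the PDS list their median was 3.86 (range 3.07 to 4.95), beside 3.59 for the whole list (quartiles 3.26 and 4.06). A log2 fold of at least 4 was reached by 3 of 10 Ctrl peaks (30%, exact 95% interval 6.67 to 65.2%), against 22% of the Ctrl list, and by 15 of 31 PDS peaks (48.4%, 30.2 to 66.9%), against 27.6% of the PDS list. The 22% lies inside the Ctrl interval, and the 27.6% lies below the PDS interval. These intervals cover counting error only, peaks of 1 mRNA are not independent, and adjoining pieces were counted singly. The same share by regions was not computed, and the difference from the whole list was not tested. The PDS peaks with a log2 fold of at least 4 were not spread evenly over the genes: 8 belonged to HSP90AB1, 6 to HSPD1 and 1 to CANX.

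**Figure D2:**
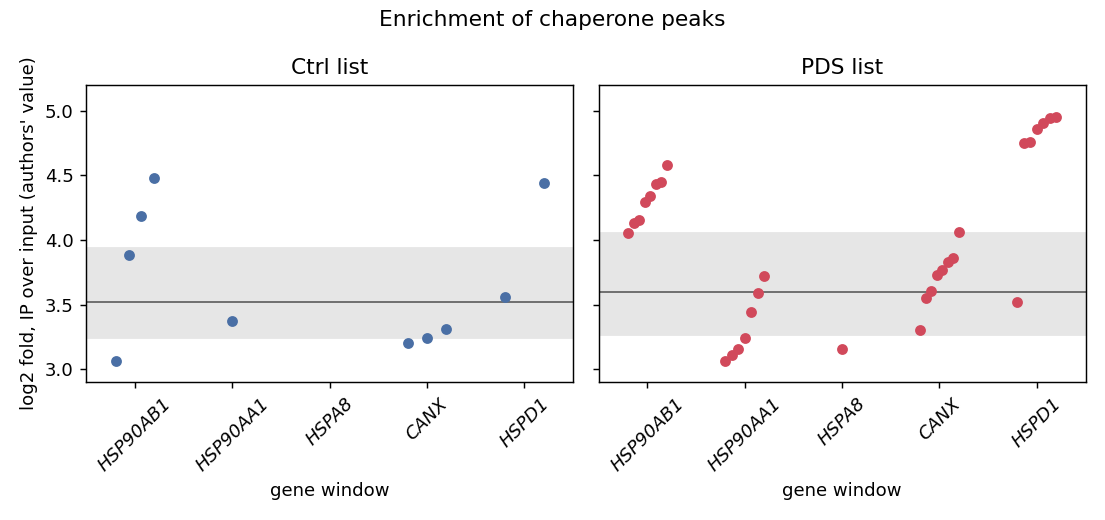
Authors' log2 fold of IP over input (vertical axis) for each peak (point) in the 5 windows with peaks, in the Ctrl list (left) and the PDS list (right); the line and grey band are the median and quartiles of the whole list. All 8 HSP90AB1 peaks and 6 of 7 HSPD1 peaks of the PDS list lie at 4.06 or more, whereas those of HSP90AA1 lie between 3.07 and 3.72.

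HSP90AB1 encodes HSP90 beta, the constitutive cytosolic form of HSP90. Its window is the plus strand of chromosome 6 from 44214800 to 44221700 (6.9 kb). Of the 7 windows it had the largest percentage of its length under peaks, 6.41% in the PDS list and 2.58% in the Ctrl list. This percentage depends on the length of each genomic window, introns included. By bound length, CANX had 181 nt and HSP90AB1 178 nt in the Ctrl list. In the PDS list the longest was the 442 nt of HSP90AB1. The Ctrl peaks, from 5′ to 3′, lay at 44217530 to 44217571 (log2 fold 4.48, −log10 p 23.3), 44217758 to 44217770 (3.88, 15.0), 44219159 to 44219193 (3.06, 8.15) and 44221357 to 44221444 (4.18, 39.9). All but the second were also occupied in the PDS list.

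The PDS peaks of HSP90AB1 fell into 4 regions. The first comprised peaks at 44217526 to 44217568 (log2 fold 4.58, −log10 p 24.9) and 44217569 to 44217571 (4.45, 18.3), which together cover the first Ctrl peak. The second was the peak at 44219159 to 44219197 (log2 fold 4.16, −log10 p 14.1), which begins at the same base as the third Ctrl peak. The third region, of 214 nt, had no Ctrl peak within 500 nt and lay 558 nt downstream of the nearest. It held peaks at 44219752 to 44219804 (log2 fold 4.34, −log10 p 21.9), 44219806 to 44219851 (4.44, 34.9) and 44219852 to 44219965 (4.06, 84.2). The last of these had the highest −log10 p of all 41 chaperone peaks and ranked 92 of 2925 in the PDS list by that value, but 729 by log2 fold. The fourth region, centred 308 and 406 nt from the 3′ edge of the window, held peaks at 44221261 to 44221329 (log2 fold 4.13, −log10 p 28.4) and 44221355 to 44221429 (4.29, 35.5). The latter overlapped the fourth Ctrl peak, and the former ended 27 nt upstream of it. The Ctrl peak at 44217758 was the only one in this window without a PDS partner; the nearest PDS peak ended 186 nt upstream.

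HSP90AA1 encodes HSP90 alpha, the stress-inducible cytosolic form. Its window (minus strand of chromosome 14, 102547000 to 102606100) spans 59.1 kb. All its peaks lay in the 3′-most part of this genomic window, with midpoints 52747 to 56496 nt from the 5′ edge. Without an annotation this does not place them along the HSP90AA1 mRNA. The single Ctrl peak, at 102553324 to 102553372, had a log2 fold of 3.37 and a −log10 p of 10.4. The PDS list had a peak at nearly the same place, 102553330 to 102553377 (log2 fold 3.72, −log10 p 19.4), and 6 further peaks downstream of it over a stretch of 3800 nt in all. In 5′ to 3′ order these lay at 102552629 to 102552711 (log2 fold 3.44, −log10 p 26.0), 102552118 to 102552156 (3.59, 12.5), 102552095 to 102552113 (3.24, 11.0), 102551763 to 102551768 (3.16, 9.41), 102551743 to 102551762 (3.07, 9.41) and 102549578 to 102549632 (3.11, 6.57). The closest of the 6 was 612 nt from the Ctrl peak. Although the number of PDS peaks was near that of HSP90AB1, their enrichment was lower: the highest HSP90AA1 value (3.72) lay below the lowest HSP90AB1 value (4.06) in the PDS list, with medians of 3.24 and 4.32. In the Ctrl list, the one HSP90AA1 peak lay within the range of the 4 HSP90AB1 peaks.

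HSPA8 encodes HSC70, the constitutive cytosolic HSP70. One PDS peak was found in its 4.8 kb window (minus strand of chromosome 11, 122928100 to 122932900), at 122928479 to 122928541, with its midpoint 410 nt from the 3′ edge. Its log2 fold of 3.15 exceeded that of 15.2% of the PDS list, and its −log10 p was 10.3. No Ctrl peak lay in the window. The peak would not have passed a log2 fold limit of 4.

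The ER chaperones differed from one another in their number of peaks. HSPA5 encodes BiP, the HSP70 of the ER lumen, and HSP90B1 encodes GRP94, the HSP90 of the same compartment. Neither the HSPA5 window (minus strand of chromosome 9, 127997100 to 128003700, 6.6 kb) nor the HSP90B1 window (plus strand of chromosome 12, 104323800 to 104347500, 23.7 kb) held a peak. The nearest same-strand peaks lay 2886047 nt from the HSPA5 window (Ctrl list) and 5334173 nt from the HSP90B1 window (PDS list). A site below the authors' thresholds would not appear in the lists, and without the read counts of the inputs an unbound mRNA and an mRNA of low abundance cannot be told apart.

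CANX, the third ER member, had peaks in both lists but no position in common between them. Its window (plus strand of chromosome 5, 179125900 to 179158700) measures 32.8 kb. The first Ctrl peak, at 179125948 to 179126028 (log2 fold 3.20, −log10 p 6.81), had its midpoint 88 nt from the 5′ edge of the window, and the nearest PDS peak was 23923 nt away. The other Ctrl peaks lay near the 3′ edge, at 179156401 to 179156447 (log2 fold 3.24, −log10 p 6.85) and 179156469 to 179156521 (3.31, 5.49). All 3 were among the weaker peaks of the Ctrl list, with 20.3 to 31.3% of that list below them in log2 fold.

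Joined within 50 nt, the PDS peaks of CANX made 4 regions, which are described here as 2 places. The first was a stretch of 829 nt with 6 peaks, all of which bordered another peak, at 179149952 to 179150017 (log2 fold 3.55, −log10 p 38.03), 179150018 to 179150020 (3.83, 33.5), 179150661 to 179150663 (3.77, 32.8), 179150664 to 179150678 (3.73, 37.8), 179150679 to 179150723 (3.86, 39.4) and 179150724 to 179150780 (4.06, 24.8). This stretch was not continuous: peaks covered 189 of its 829 nt, in regions of 69 and 120 nt. No Ctrl peak lay within 5620 nt of the stretch. The second place was closer to the 3′ edge, with peaks at 179155658 to 179155729 (log2 fold 3.31, −log10 p 14.8) and 179156300 to 179156376 (3.61, 15.7). The latter ended 24 nt upstream of a Ctrl peak without overlapping it. The 8 PDS peaks had −log10 p values of 14.8 to 39.4, all above the 5.49 to 6.85 of the 3 Ctrl peaks. Over the whole lists the median −log10 p was also higher in PDS (17.8) than in Ctrl (11.9). The log2 folds of the 8 PDS peaks ran from 3.306 to 4.06, and those of the Ctrl peaks ended at 3.311, so that the ranges overlapped slightly.

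HSPD1 encodes HSP60, the chaperonin of the mitochondrial matrix, and carried the most enriched chaperone peaks of the PDS list. Its window is the minus strand of chromosome 2 from 198351300 to 198365100 (13.8 kb). The Ctrl list held 1 peak near each end: at 198363497 to 198363559, 1572 nt from the 5′ edge (log2 fold 3.56, −log10 p 9.73), and at 198353067 to 198353134, 1801 nt from the 3′ edge (4.44, 17.9). The latter ranked 132 of 1421 by log2 fold. The 5′ peak had no PDS peak within 8485 nt.

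In the PDS list 6 of the 7 HSPD1 peaks lay within a stretch of 906 nt whose 3′ end is the 3′ Ctrl peak. From 5′ to 3′ they were at 198353911 to 198353972 (log2 fold 4.95, −log10 p 45.4), 198353728 to 198353773 (4.75, 68.3), 198353726 to 198353727 (4.86, 68.0), 198353213 to 198353215 (4.91, 67.6), 198353151 to 198353212 (4.94, 71.8) and 198353067 to 198353148 (4.76, 20.5). The last of these overlapped the Ctrl peak. All 6 exceeded the Ctrl peak in log2 fold and ranked 122 to 215 of 2925, so that 92.65 to 95.8% of the PDS list lay below them. The remaining peak, at 198354958 to 198355011, was weaker (log2 fold 3.52, −log10 p 8.11). Of the 6 peaks, 4 bordered a neighbour, including those of 2 and 3 nt, and joined within 50 nt the 6 made 3 regions of 62, 48 and 149 nt.

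**Figure D3:**
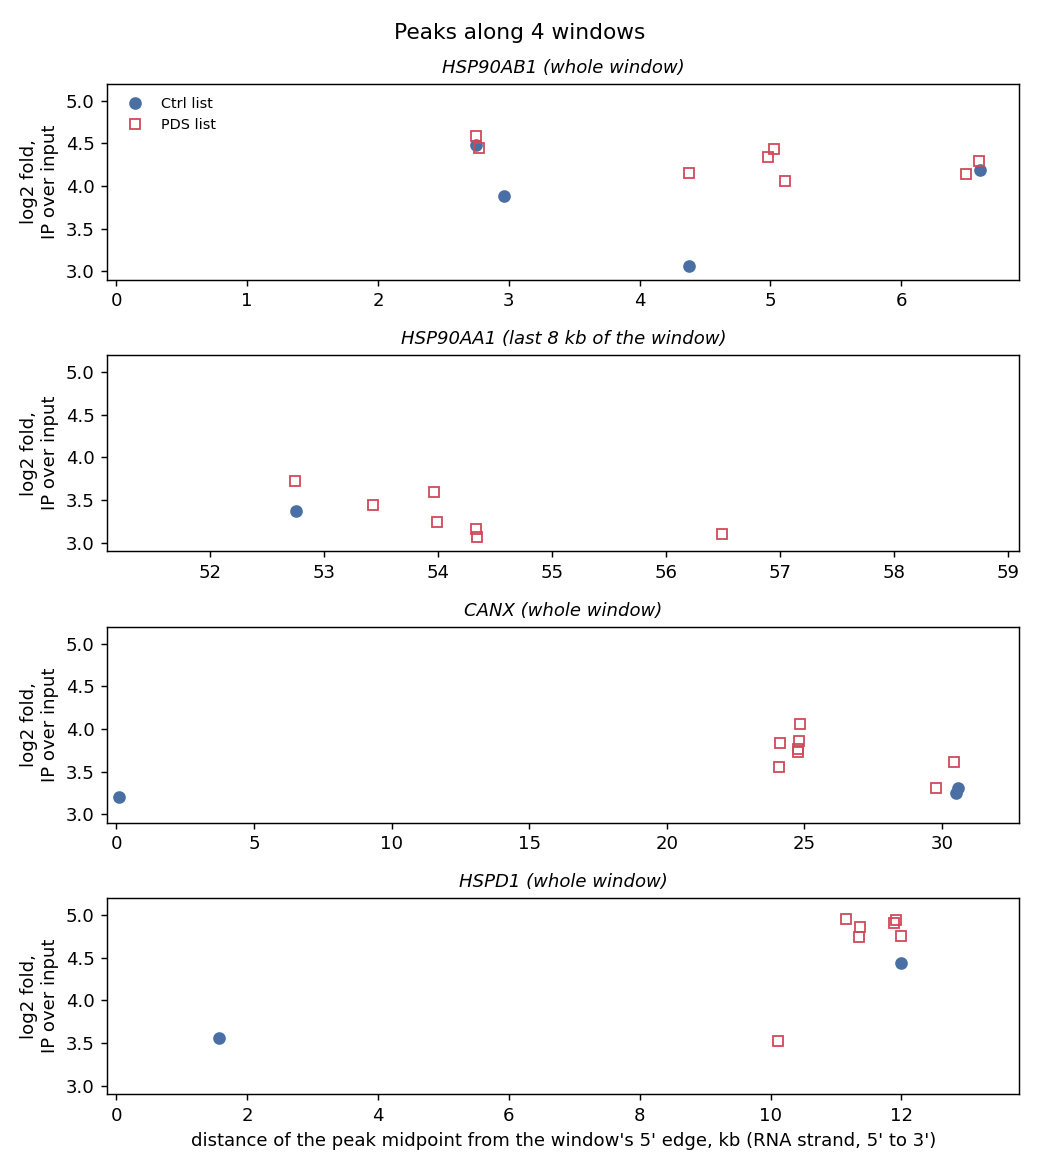
Midpoint of each peak along the window, in kb from its 5′ edge (horizontal axis), against the authors' log2 fold of IP over input (vertical axis) for HSP90AB1, HSP90AA1 (last 8 kb of the window), CANX and HSPD1; filled circles are Ctrl peaks and open squares PDS peaks. PDS peaks stand in groups with no Ctrl peak near 5 kb in HSP90AB1 and near 24 to 25 kb in CANX, and the single early Ctrl peaks of CANX and HSPD1 have no PDS peak beside them.

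Overlap between the lists was set against all peaks. Of the 10 Ctrl peaks in these windows, 5 overlapped a PDS peak by at least 1 nt (50%, exact 95% interval 18.7 to 81.3%), beside 51.5% of the Ctrl list, so the chaperone share was close to the background. Among the 31 peaks of the PDS list, 6 did so with a Ctrl peak (19.4%, 7.45 to 37.5%), beside 30.6% of the PDS list, which lies inside that interval. The overlapping peaks belonged to HSP90AB1 (3 Ctrl and 4 PDS peaks), HSP90AA1 (1 and 1) and HSPD1 (1 and 1). Of the 25 PDS peaks without overlap, 4 lay within 100 nt of a Ctrl peak (16%, beside 9.06% of the 2031 such peaks of the list) and 21 lay over 500 nt from any (84%, beside 81.2%). Both background shares lie inside the exact 95% intervals of the chaperone shares (4.54 to 36.1% and 63.9 to 95.5%).

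Each overlapped Ctrl peak was paired with the PDS peak that covered most of it, which gave 5 pairs, in HSP90AB1, HSP90AA1 and HSPD1. Pairs chosen by overlap have close midpoints by construction: they differed by 2 to 8.5 nt (median 5.5 nt) here and by a median of 8.5 nt (quartiles 3.5 and 19.5 nt) over all 732 pairs of the lists. Of the 5 pairs, 2, in HSP90AB1 and HSPD1, shared a border exactly. The same share over all 732 pairs was not computed, so this count shows nothing particular to these genes. The log2 fold in the Ctrl and PDS lists was 4.48 and 4.58, 3.06 and 4.16, and 4.18 and 4.29 at the 3 HSP90AB1 pairs, from 5′ to 3′. It was 3.37 and 3.72 in HSP90AA1, and 4.44 and 4.76 in HSPD1. The PDS value was the higher one in 5 of 5 pairs, by 0.10 to 1.10 with a median of 0.32. The largest difference belonged to the pair with a Ctrl value of 3.06. Both lists contain only values above 3, so its PDS partner had little room to be lower. Over all 732 pairs the PDS value was higher in 63.8%, with a median difference of 0.20 (quartiles −0.20 and 0.69). By −log10 p the PDS peak was higher in 4 of 5 chaperone pairs, beside 73.0% of all pairs; the exception was the 3′ pair of HSP90AB1 (39.9 in Ctrl and 35.5 in PDS). With 1 value per condition, none of these differences has a replicate test.

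**Figure D4:**
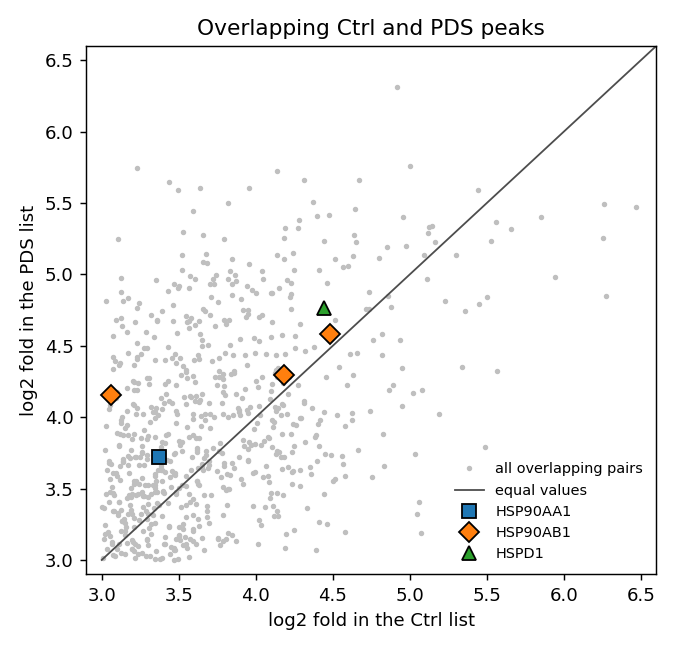
Authors' log2 fold in the Ctrl list (horizontal axis) and in the PDS list (vertical axis) for overlapping peaks: 732 pairs of the whole lists in grey, and the 5 chaperone pairs as large symbols by gene. The line marks equal values; the 5 chaperone pairs lie above it, and the pair farthest above is the HSP90AB1 pair at 3.06 and 4.16.

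The chaperone peaks had a median width of 51 nt in the Ctrl list (13 to 88 nt) and 48 nt in the PDS list (2 to 114 nt), beside 74 and 63 nt in the whole lists. A border shared with another peak was seen in 16 of 31 PDS peaks (51.6%, 33.1 to 69.8%), against 40.5% of the PDS list, which lies inside that interval, and in 0 of 10 Ctrl peaks (upper bound 30.8%), against 20.3% of the Ctrl list. The 16 peaks were 6 in CANX, 4 in HSP90AB1, 4 in HSPD1 and 2 in HSP90AA1. Of the 31 PDS peaks, 5 were at most 3 nt long (16.1%, 5.45 to 33.7%), beside 3.01% of the PDS list, and each of the 5 bordered a neighbour whose log2 fold differed from its own by at most 0.28.

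Several of these genes have relatives in the genome that share sequence with them. In the RefSeq gene table (GRCh38.p14, used for names alone) 22 pseudogene symbols carry the name of HSPD1, 20 that of HSPA8, 6 that of HSP90AB1, 5 that of HSP90AA1, 2 that of HSP90B1, 1 that of HSPA5 and 0 that of CANX. How reads that map to several places were handled is not given in the sources used here, and the effect on these counts of peaks was not tested. The same table places small nucleolar RNA genes within HSPA8 (SNORD14C, SNORD14D and SNORD14E) and HSPD1 (SNORA105B), a miRNA gene (MIR3652) within HSP90B1, and WDR20 and CBY3, which lie on the opposite strand, over parts of HSP90AA1 and CANX.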

How the data were processed

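The deposited data were 2 peak lists, 1 per condition, each combining 2 IP replicates. Per the submitters' processing notes, cutadapt, UMI-tools, STAR and the build hg19 were used; the peak caller, its limits and the way of combining replicates were not given in the sources used here. The lists have no header. Both value columns were identified from their ranges and the usual format of such lists. Column 4 was taken as the authors' −log10 p per peak (400, a stand-in, occurs in no chaperone peak). Column 5 was taken as the authors' log2 fold of IP over input. Starts were read as counted from 0 and are printed from 1.

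A peak belonged to a gene if it touched the window on its strand; windows, genes and groupings were chosen with earlier results of these data known. Every peak of every member is named. Overlap needed 1 nt on the same strand. Shares have exact (Clopper-Pearson) 95% intervals (python 3.11.15, pandas 2.3.3, scipy 1.17.1). The overlap search was checked on copies of Ctrl peaks, left in place or moved to a chromosome name absent from the list. Near misses, overlaps of 1 nt and peaks on the opposite strand were not simulated, so the check does not cover them. Bound length was checked against a count base by base on 1 chromosome. Joining within 50 nt was not checked in this way. No differences were tested, since no value exists per replicate. Other chaperone genes and peak sequences, which need an hg19 annotation or genome, were not analysed here.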

Additional observations from a re-analysis of the deposited data

How the results depend on the processing

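Limits of log2 fold 4 and −log10 p 5 left 3 Ctrl and 15 PDS peaks in the 7 windows. The ratio was 5.0, beside 2.58 for the whole lists (808 PDS and 313 Ctrl peaks). Bound lengths were 198 nt (Ctrl) and 756 nt (PDS). All 3 Ctrl peaks (100%) then overlapped a PDS peak. The same share over the whole Ctrl list at these limits was not computed, so the 3 peaks show nothing particular to these genes. HSP90AA1 and HSPA8 had no peak left, and CANX had 1 PDS peak. Joining peaks within 50 nt left 18 PDS regions and a ratio of 2.0, with 4 regions in each list for HSP90AB1. Of 23 alternative values over all windows, these 8 moved (counts and ratios by over 1.5 times, shares beyond the main interval, medians beyond the quartiles); higher limits keep fewer peaks by construction, and joining counts adjoining pieces once. Of 27 values for single genes, 10 moved. The share of overlapping peaks stayed within its interval with a reciprocal overlap of 50%, within 100 nt, with a PDS list shortened to the length of the Ctrl list and, an alternative chosen after seeing the data, with peaks joined first. No paired analysis was possible because the replicates were combined before deposit; for that reason no replicate was left out either.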
